A study of Rattus norvegicus with 6 samples.

Results

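The plasminogen activators of rat chondrocytes, the receptor of one of them and a set of protease inhibitors were followed through 24 h of retinoic acid (RA). The 6 genes were chosen by name from the 18923 genes of the count tables. They were the activators Plau and Plat, the receptor Plaur, the serpins Serpine2 and Serpinf1 and the Kunitz inhibitor Tfpi2. Each symbol matched a single gene identifier. None of the 6 was lost to the low-count filter, which left 13438 genes for testing. Tfpi2 is not a serpin, and Serpinf1 has the serpin fold without protease inhibition, so the 6 genes form a group by function around plasminogen and not one protein family.

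Poly(A) RNA was sequenced from primary chondrocytes of wild-type female Sprague-Dawley rats aged 24 h, freed from cartilage with collagenase and used at passage 1 or 2. The CON group received high-glucose DMEM with 10% fetal bovine serum and antibiotics for 24 h, and the RA group received this medium with 1 µM all-trans RA for the same time. Each group held 3 samples, described as independent in the study's methods, and the number of rats behind each sample and any vehicle in CON are not given in the sources used here. In these serum-fed monolayers, plasminogen and serum inhibitors can also come from the medium, which RNA-Seq does not measure.

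Plasminogen is a circulating zymogen that becomes the protease plasmin when urokinase (the product of Plau) or tissue plasminogen activator (Plat) cuts it. Urokinase does this at the cell surface, bound to its receptor, the product of Plaur. Plasmin degrades fibrin and fibronectin and activates the zymogens of matrix metalloproteinases, which is why the system is studied in cartilage breakdown. Serpine2 encodes protease nexin-1, which blocks thrombin and urokinase, and Serpinf1 encodes pigment epithelium-derived factor (PEDF), known for blocking vessel growth. Tfpi2 encodes a secreted Kunitz inhibitor of plasmin and other serine proteases.

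The sequences just upstream of Plau and Serpine2, the 2 members that rose, and of Plaur, which did not pass the test, are shown because they differ in simple motifs. RefSeq's rat assembly GRCr8 gave such a sequence for 5 of the 6 members, matched by symbol, and the sequence for Plat was not analysed here. Each line gives the 250 bases before the annotated gene start, 5′ to 3′ on the strand of the gene. Capitals mark GGGCGG (the GC box bound by Sp1), or CCGCCC where it lies on the other strand, in Plau and Serpine2, and TGANTCA (the AP-1 site) in Plaur.
Plau, GRCr8 chr15:3511988-3512237, minus strand: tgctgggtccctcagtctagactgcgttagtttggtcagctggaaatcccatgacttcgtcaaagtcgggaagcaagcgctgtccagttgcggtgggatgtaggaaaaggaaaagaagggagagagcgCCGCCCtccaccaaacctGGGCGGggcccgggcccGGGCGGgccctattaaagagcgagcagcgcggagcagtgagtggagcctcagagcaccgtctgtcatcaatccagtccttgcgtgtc
Serpine2, GRCr8 chr9:88637203-88637452, minus strand: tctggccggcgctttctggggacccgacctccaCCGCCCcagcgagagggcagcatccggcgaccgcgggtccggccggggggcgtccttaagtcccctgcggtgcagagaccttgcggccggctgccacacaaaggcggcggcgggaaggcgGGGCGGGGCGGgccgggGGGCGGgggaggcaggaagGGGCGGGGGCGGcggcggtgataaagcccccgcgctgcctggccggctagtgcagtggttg
Plaur, GRCr8 chr1:89181113-89181362, plus strand: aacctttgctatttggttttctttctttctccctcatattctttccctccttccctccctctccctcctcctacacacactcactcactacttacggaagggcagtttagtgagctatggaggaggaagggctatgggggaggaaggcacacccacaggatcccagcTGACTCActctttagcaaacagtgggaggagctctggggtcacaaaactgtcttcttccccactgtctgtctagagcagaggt
Over both strands, the GC box occurred 3 times upstream of Plau, 6 times upstream of Serpine2, once upstream of Tfpi2 and not upstream of Plaur or Serpinf1. In Serpine2, 2 of the copies shared a base and 2 others lay end to end. Of 33469 upstream sequences of the same length in the assembly, 30.5% held at least 1 GC box. The AP-1 letters occurred once upstream of Plaur, 83 bases before the gene start, and once upstream of Tfpi2, against 6.34% of all upstream sequences. The half-site AGGTCA of retinoid receptors was found upstream of Serpinf1 alone among the 5 (14.1% of all sequences). The element DR5, which is AGGTCA, any 5 bases and AGGTCA again and thus holds the half-site, was found in none of the 5 and in 0.00896% of all. The GC content was 60.0% for Plau, 76.8% for Serpine2 and 51.2% for Plaur, and the median of all was 51.2%. These are letter matches in a short window and were not tested for binding.

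The total count of a sample ran from 30170909 to 38007486 in CON and from 29370025 to 30952882 in RA. CON sample 1 stood apart from the other samples, since the SD of its log2 differences from CON samples 2 and 3 was 0.458 and 0.489, whereas that of the other pairs within a group ran from 0.336 to 0.358. Values without it are therefore given below. Of 7 retinoid response genes, 5 were called higher in RA by the rule given below, against 2.67% of all genes tested. Among them was Cyp26a1, which encodes an RA-degrading enzyme, with a log2 fold change of 3.35 (edgeR, adjusted p = 2.13e-04). Crabp2 was also higher in every RA sample than in any CON sample but was not called (0.40, edgeR, adjusted p = 0.0859). Stra6, the other gene not called, had a negative log2 fold change with overlap between the groups (-0.44, edgeR, adjusted p = 0.495). One of the 5, the receptor gene Rarb (1.43, edgeR, adjusted p = 0.0493), kept its call in 1 of the 6 fits without 1 sample, that without CON sample 1. All 8 chondrocyte markers were expressed. Their summed level was lower in RA, at 3992 to 4303 FPKM against 6320 to 8354 in CON. All 8 were lower in every RA sample than in any CON sample, where 32.2% of all genes tested showed no overlap. By the same rule 7 of the 8 were called lower, against 2.29% of all genes tested.

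Serpine2 and Plau rose with RA, and Plaur, Serpinf1 and Tfpi2 did not pass the test. Plat passed the adjusted p but not the limit on fold change. A gene was called a DEG when its adjusted p was below 0.05 and its log2 fold change lay beyond 0.58, about 1.5-fold, in edgeR's quasi-likelihood test over all 13438 genes. By this rule 2 of the 6 members were DEGs, both higher in RA, against 4.96% of all genes tested (2.67% higher and 2.29% lower in RA). By the adjusted p alone 3 members passed, all higher in RA, against 9.82% of all genes and 5.31% in that direction.

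Of the activators, Plau (ENSRNOG00000010516) was at 7.71, 9.23 and 8.99 FPKM in CON samples 1, 2 and 3, and at 13.4, 13.1 and 14.9 FPKM in RA samples 1, 2 and 3. FPKM scales a read count for gene length and sequencing depth. Means are given ± SD over the 3 samples of a group. Every RA sample lay above every CON sample, and the lowest RA sample exceeded the highest CON sample by several times the SD within CON. The mean was 8.64 ± 0.817 FPKM in CON against 13.8 ± 0.977 FPKM in RA (n = 3 each). The log2 fold change was 0.66 (standard error 0.0993, edgeR, adjusted p = 0.00428), or 1.58-fold, with a 95% confidence interval from 1.35 to 1.85-fold. These values rest on 444 to 641 reads per sample in CON and 724 to 867 in RA. In GRCr8 a non-coding gene, LOC120096900, overlaps 2757 of the 6503 bases of Plau. The library kit is not described as strand-specific, so reads of the 2 genes may not have been told apart.

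Plat (ENSRNOG00000019018) was at 24.1, 29.6 and 24.0 FPKM in CON samples 1, 2 and 3 and at 32.0, 37.6 and 32.9 FPKM in RA. The groups did not overlap, but the gap between the highest CON sample and the lowest RA sample was smaller than the SD within either group. The mean was 25.9 ± 3.19 FPKM in CON against 34.1 ± 3.02 FPKM in RA (n = 3 each), and the log2 fold change was 0.39 (standard error 0.1, edgeR, adjusted p = 0.0472). The 95% confidence interval of the fold change ran from 1.11 to 1.53, and the limit lay inside it. Of the 6 edgeR fits that each dropped a single sample, 2 gave an adjusted p below 0.05, namely without CON sample 1 (0.0226) and without CON sample 2 (0.0315). The adjusted p was 0.0972 without CON sample 3 and 0.0844, 0.193 and 0.124 without RA samples 1, 2 and 3. In GRCr8 a pseudogene, LOC108348292, overlaps 2202 of the 78977 bases of Plat, and its symbol was not among the counted genes. The part of its reads in the Plat counts was not tested. Ikbkb, which shares 70 bases with Plat in GRCr8, had a log2 fold change of 0.098 (edgeR, adjusted p = 0.421).

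The urokinase receptor gene Plaur (ENSRNOG00000037931) was at 11.2, 10.4 and 11.3 FPKM in CON and at 11.8, 11.8 and 11.5 FPKM in RA. Its RA values lay just above the CON values with no overlap, but the gap of the nearest samples was smaller than the SD within CON. The log2 fold change was 0.079 (standard error 0.0942, edgeR, adjusted p = 0.654), with a 95% confidence interval from -0.14 to 0.29. The FPKM ranges of the 2 groups did not overlap in 4 members (Plau, Plat, Plaur and Serpine2), whereas 32.2% of all genes tested showed no overlap. The interval leaves room for a change of up to 1.23-fold in Plaur, smaller than the 1.35-fold at the lower end for Plau.

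**Figure D1:**
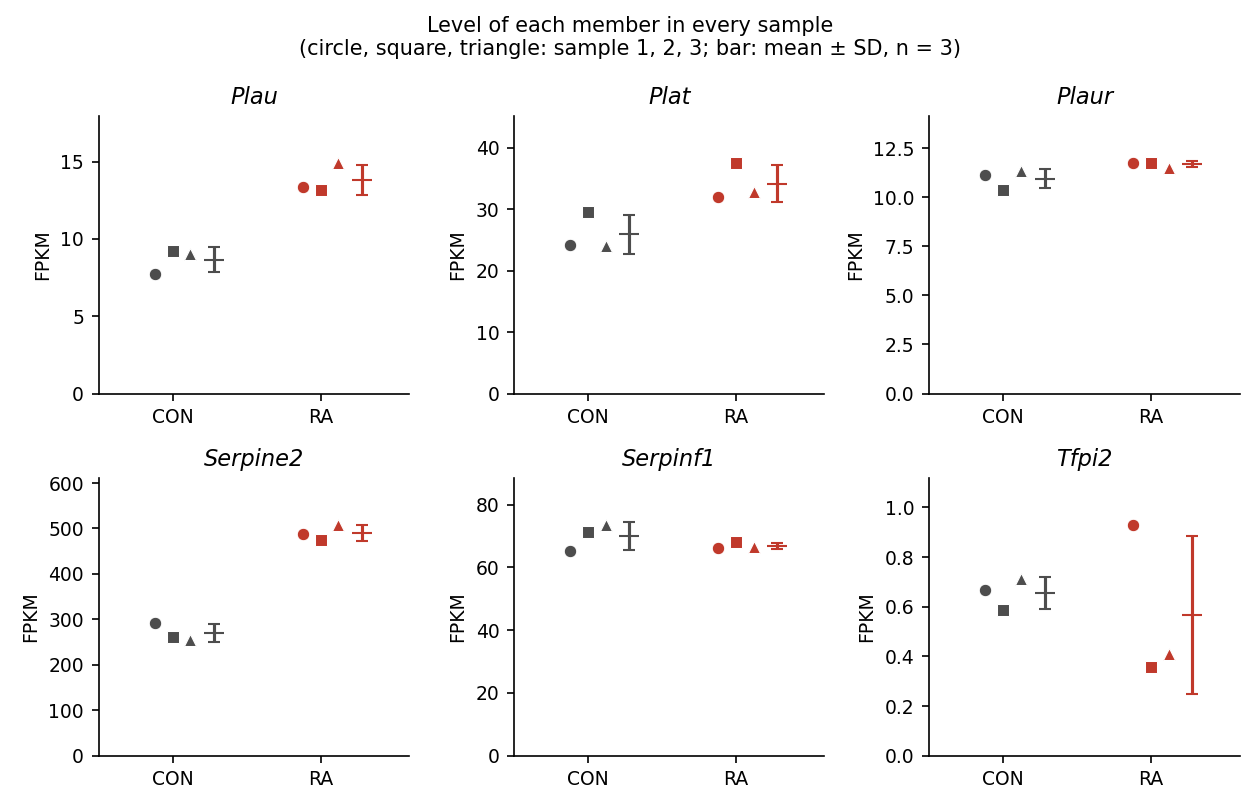
FPKM of each of the 6 members in every CON sample (grey) and RA sample (red), with the mean and SD of 3 samples beside the points and each axis starting at 0. The CON and RA points of Serpine2 and Plau are widely separated, those of Plaur and Serpinf1 lie close together, and for Tfpi2 RA sample 1 lies at 0.930 FPKM while the other RA samples lie at 0.357 and 0.411.

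Among the inhibitors, Serpine2 (ENSRNOG00000015461) was the most abundant member and the one with the largest rise. It was at 292, 260.0 and 256 FPKM in CON samples 1, 2 and 3 and at 487, 475 and 508 FPKM in RA samples 1, 2 and 3. No RA sample came near the CON range. The mean was 269 ± 19.9 FPKM in CON against 490.0 ± 17.0 FPKM in RA (n = 3 each). This was a log2 fold change of 0.85 (standard error 0.0643, edgeR, adjusted p = 1.29e-04), or 1.80-fold with a 95% confidence interval from 1.63 to 2.00-fold. Serpine2 ranked 73 of 13438 genes by p. Its level exceeded that of 98.1% of the genes tested in CON and 99.0% in RA.

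Serpinf1 (ENSRNOG00000003172) was at 65.1, 71.4 and 73.6 FPKM in CON and at 66.1, 68.0 and 66.6 FPKM in RA. The RA values all lay inside the CON range. The log2 fold change was -0.080 (standard error 0.0681, edgeR, adjusted p = 0.519), with a 95% confidence interval from -0.24 to 0.076, so that a rise as large as that of Serpine2 lay well outside it. Of the 3 PEDF receptor genes listed beside Serpinf1, 2 were tested and neither was a DEG. Plxdc2 had a log2 fold change of -0.13 (adjusted p = 0.452) and Plxdc1, at 0.136 FPKM in CON, one of -0.42 (adjusted p = 0.65).

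Tfpi2 (ENSRNOG00000010513) was the lowest member, with 32 to 49 reads per sample in CON and 19 to 50 in RA. Its level was 0.666, 0.586 and 0.712 FPKM in CON and 0.930, 0.357 and 0.411 FPKM in RA. RA sample 1 lay above all CON samples, and RA samples 2 and 3 lay below all of them. The log2 fold change was -0.23 (standard error 0.374, edgeR, adjusted p = 0.752), and its 95% confidence interval, from -1.09 to 0.63, was the widest of the 6. Without RA sample 1 it was -0.77 (adjusted p = 0.22), and without RA sample 2 it was 0.0087 (adjusted p = 0.994). A fall to 0.471-fold and a rise to 1.55-fold both lay at the bounds of this interval.

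In all 6 samples the order of levels in FPKM began with Serpine2, followed by Serpinf1 and Plat, and ended with Tfpi2. Plaur was above Plau in every CON sample and below it in every RA sample. In reads, Plau exceeded Plaur in every sample, at 444 to 641 against 321 to 441 in CON and 724 to 867 against 354 to 365 in RA. The crossing in FPKM thus depends on the gene lengths used in FPKM. Within a group, no 2 neighbours in the order overlapped over the samples. Serpine2 held 69.8 ± 2.66% of the summed FPKM of the 6 genes in CON and 79.4 ± 0.894% in RA (n = 3 each), while Plat went from 6.73 ± 0.913% to 5.54 ± 0.578% and Plau was at 2.25 ± 0.282% and 2.24 ± 0.101%. The share of Plau thus moved by less than its SD, while the sum, mostly Serpine2, rose as well.

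Ratios within a sample do not depend on scaling between samples. For 5 ratios of FPKM, an exact two-sided permutation test of 3 against 3 samples cannot go below p = 0.1, so none could pass 0.05, and p-values were adjusted over the 5. The log2 ratio of Plau to Plaur was -0.53, -0.17 and -0.33 in CON and 0.18, 0.16 and 0.38 in RA. It was 0.59 higher in RA with no overlap (exact permutation p = 0.1, adjusted 0.167). In linear terms, the geometric mean of this ratio of levels was 0.788 in CON and 1.18 in RA. These values, unlike the difference between the groups, depend on the gene lengths used in FPKM.

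Neither activator had a higher ratio to Serpine2 in RA. The log2 ratio of Plat to Serpine2 was -3.60, -3.14 and -3.42 in CON and -3.93, -3.66 and -3.95 in RA, 0.46 lower in RA with no overlap (exact permutation p = 0.1, adjusted 0.167). Serpine2 thus exceeded Plat 10.4-fold in CON and 14.4-fold in RA. For Plau to Serpine2 the groups overlapped, with -5.24, -4.82 and -4.83 in CON and -5.19, -5.17 and -5.09 in RA, and the difference of -0.19 (exact permutation p = 0.4, adjusted 0.4) was smaller than the SD of 0.243 within CON. CON sample 1, which stood apart over all genes, held the lowest of these CON ratios. The difference was -0.33 without it, -0.11 without CON sample 2 and -0.12 without CON sample 3. The log2 ratio of Plau to Plat differed by 0.28 with overlap between the groups (exact permutation p = 0.2, adjusted 0.25). The ratio of the 2 serpins, Serpine2 to Serpinf1, was 1.94 ± 0.197 in CON against 2.87 ± 0.0656 in RA on the log2 scale (n = 3 each), 0.93 higher with no overlap (exact permutation p = 0.1, adjusted 0.167).

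**Figure D2:**
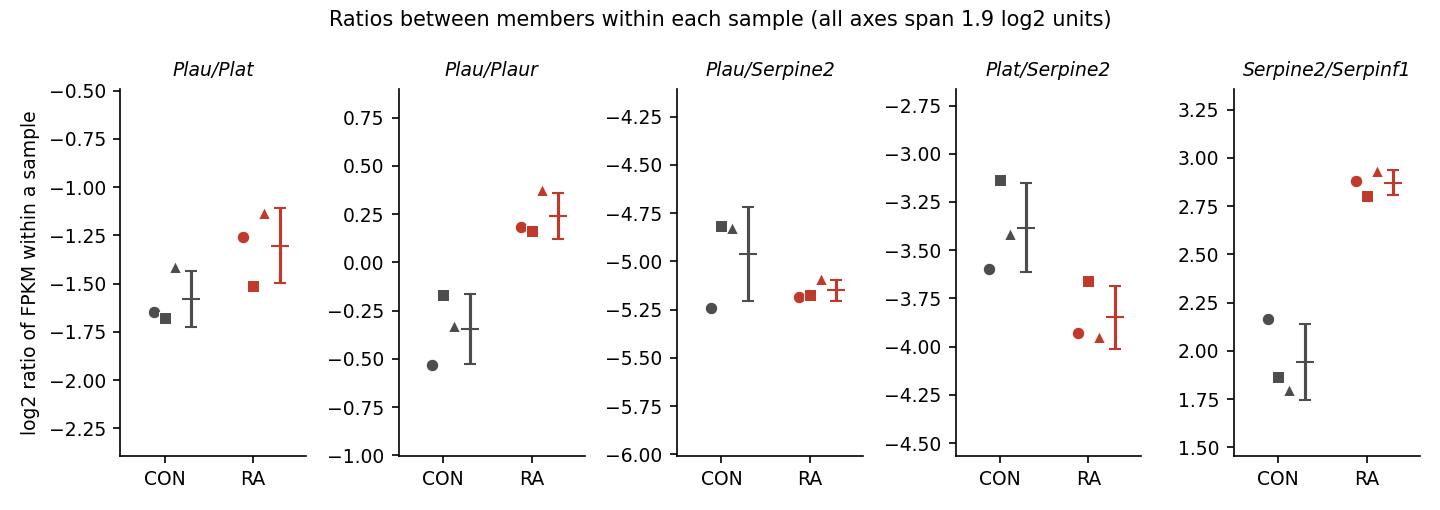
Log2 ratio of FPKM between pairs of members within each CON sample (grey) and RA sample (red), with the mean and SD of 3 samples, on axes of equal span. The Plau to Plaur and Serpine2 to Serpinf1 ratios are higher in RA without overlap and the Plat to Serpine2 ratio is lower, whereas the Plau to Serpine2 ratios of the groups overlap, with CON sample 1 at -5.24.

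Of 23 other genes of the plasminogen system, 20 were in the files and 15 were tested. Of these 1 was a DEG, lower in RA, against 4.96% of all genes tested, and 5 passed the adjusted p alone, 3 higher and 2 lower, against 9.82%. The median log2 fold change was 0.057 over the 15 (0.022 without CON sample 1), against -0.0057 over all genes with all samples. The gene of the substrate, Plg, which encodes plasminogen, had 9 reads over the 6 samples and at most 4 in any of them, so no fold change is given.

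Genes of cell-surface plasminogen binding lay below the limit on fold change. Anxa2, which encodes the annexin A2 chain of a plasminogen receptor, had means of 943 ± 39.7 FPKM in CON against 1332 ± 7.45 FPKM in RA (n = 3 each) and a log2 fold change of 0.48 (edgeR, adjusted p = 5.37e-04). Its partner S100a10 had 0.23 (edgeR, adjusted p = 0.0209), and the receptor Plgrkt had -0.10 (edgeR, adjusted p = 0.615). Eno1, also on the list, had 0.46 (edgeR, adjusted p = 0.0472). Its adjusted p stayed below 0.05 without CON sample 1 or CON sample 3. Without CON sample 2 or any 1 RA sample it was 0.098 to 0.161 (edgeR). Among the endocytic receptors that clear activator-inhibitor complexes, Lrp1 had 0.45 (edgeR, adjusted p = 0.0553) and Vldlr -0.35 (edgeR, adjusted p = 0.0151). None of these 5 was a DEG. Serpini1, which encodes the tPA inhibitor neuroserpin, was the single DEG of the list and was lower in RA, at 1.74 ± 0.184 FPKM against 2.78 ± 0.37 FPKM in CON (n = 3 each), which gave a log2 fold change of -0.69 (edgeR, adjusted p = 0.0195). It lost the call without CON sample 2 (-0.69, adjusted p = 0.0708), RA sample 1 (-0.67, adjusted p = 0.0868) or RA sample 2 (-0.62, adjusted p = 0.0964).

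Of 8 tested genes of coagulation and of Kunitz inhibition, 2 were DEGs, both higher in RA. Over all genes tested the share higher in RA was 2.67%. Spint2, which encodes a membrane-bound Kunitz inhibitor of serine proteases, was at 10.9 FPKM in the lowest CON sample and 11.3 ± 0.608 FPKM in the mean, against 20.2, 20.5 and 19.4 FPKM in RA samples 1, 2 and 3. Its log2 fold change was 0.82 (standard error 0.0787, edgeR, adjusted p = 4.28e-04), close to that of Serpine2. F2rl1, which encodes the protease-activated receptor PAR2, was at 0.832, 1.02 and 1.23 FPKM in CON and 2.19, 2.48 and 2.65 FPKM in RA, a log2 fold change of 1.23 (edgeR, adjusted p = 0.00375). F2r, which encodes the thrombin receptor PAR1, had 0.35 (edgeR, adjusted p = 0.00732) and was below the limit. The thrombin gene F2 had 5 reads over all samples. Spint2 and F2rl1 stayed DEGs whichever of the 6 samples was dropped.

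Of the substrates of plasmin and its activators, 5 of 10 listed were tested. Against 2.67% of all genes tested, 3 were DEGs higher in RA, and none was a DEG lower in RA. These were the matrix metalloproteinase genes Mmp9, Mmp13 and Mmp3, with log2 fold changes of 2.88, 2.26 and 1.02 (edgeR, adjusted p = 0.00231, 8.77e-05 and 0.00180). The value of Mmp9 rests on few reads, 18, 15 and 7 in CON and 79, 78 and 121 in RA. Its mean was 0.134 FPKM in CON and 0.976 in RA, whereas Mmp13 was at 50.9 and 246 FPKM and Mmp3 at 3.63 and 7.42 FPKM. Fn1, the fibronectin gene, had means of 5335 ± 357 FPKM in CON against 6524 ± 162 FPKM in RA (n = 3 each) and a log2 fold change of 0.28 (edgeR, adjusted p = 0.0161), below the limit. Tgfb1 had 0.32 (edgeR, adjusted p = 0.0666). The fibrinogen genes Fgb and Fgg had 8 and 6 reads over all samples.

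The serpins other than the members differed in direction. Of 24 in the files, 14 were tested. Of these 1 was a DEG higher in RA and 2 were DEGs lower in RA, against 2.67% and 2.29% of all genes tested. The median log2 fold change of the 14 was -0.14 (-0.027 without CON sample 1), against -0.0057 over all genes with all samples. Serpina1, which encodes alpha-1-antitrypsin, rose from 1.27 ± 0.118 FPKM to 2.90 ± 0.286 FPKM (n = 3 each), and its log2 fold change was 1.17 (edgeR, adjusted p = 0.00296). Besides Serpini1, Serpinb1a, an inhibitor of neutrophil proteases, was lower in RA, at 30, 14 and 25 reads in CON and 5, 3 and 8 in RA, a log2 fold change of -1.97 (edgeR, adjusted p = 0.0326). With a single sample dropped it kept the call in 1 of 6 fits, that without CON sample 2 (-2.19, edgeR, adjusted p = 0.0469). It lost the call without CON sample 1, CON sample 3 or any of RA samples 1, 2 and 3, at log2 fold changes of -1.67 to -2.35 (edgeR, adjusted p = 0.056, 0.0641, 0.123, 0.133 and 0.0671 in that order). Serpinh1, which encodes the collagen chaperone HSP47, was the serpin with the highest level, at 1880 ± 133 FPKM in CON against 1593 ± 39.4 FPKM in RA (n = 3 each), and its log2 fold change was -0.25 (edgeR, adjusted p = 0.038). Counted once each, 39 genes of the 5 lists were tested and 8 were DEGs, 6 higher and 2 lower in RA, against 4.96% of all genes tested (2.67% higher and 2.29% lower). The lists hold genes already known to move in these samples.

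**Figure D3:**
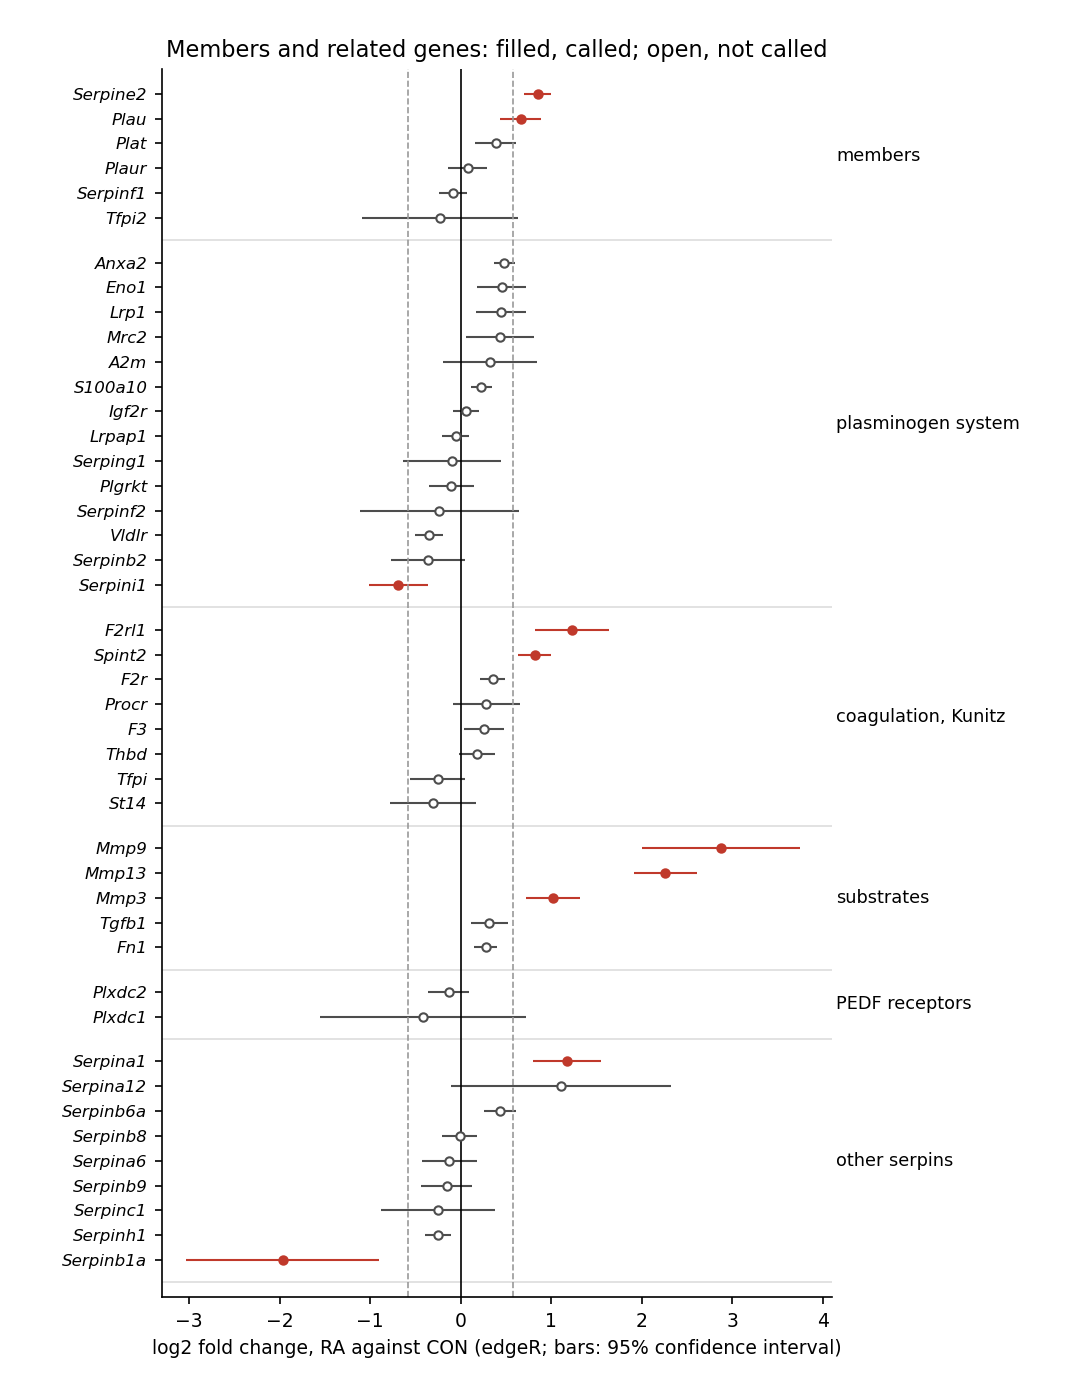
Log2 fold change of RA against CON with its 95% confidence interval (edgeR) for the 6 members and for related genes of the lists, each shown once, with DEGs filled and the limits of 0.58 dashed. Serpine2 and Plau lie beyond the limit among the members, most plasminogen system genes lie between the limits, and Mmp9 and Mmp13 lie farthest to the right.

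Markers of other cell types are given beside these levels, since the members are also expressed outside cartilage. Of the 5 fibroblast and perichondrium markers in the files, Postn was a DEG, lower in RA, and none was a DEG in the other direction. Pdgfra was higher in every RA sample, at 65.5 to 70.6 FPKM against 49.7 to 50.6 FPKM in CON, as was Thy1, at 355 to 378 FPKM against 322 to 342 FPKM. The groups overlapped for Col1a1 (2415 to 3414 FPKM in CON, 3365 to 3588 in RA) and for Col3a1 (899 to 1095 FPKM in CON, 1010 to 1023 in RA). The summed level of the 5 was 3719 to 4911 FPKM in CON and 4805 to 5059 in RA, with CON sample 1 the lowest. The summed level of 7 macrophage markers was 14.0 to 14.9 FPKM in CON and 16.4 to 17.7 in RA, nearly all of it Cd14, with Adgre1, Ptprc and Tyrobp below 0.1 FPKM in the mean of the 6 samples. Of 5 endothelial markers, Cdh5, Tek, Kdr and Vwf were below that level, and the sum ran from 5.49 to 8.03 FPKM in CON and from 6.22 to 6.85 in RA. Of 4 skeletal muscle markers 1 was a DEG, Myod1, higher in RA, at 0.0681 to 0.117 FPKM in CON and 0.282 to 0.432 FPKM in RA. Des was also higher in every RA sample, at 6.38 to 7.14 FPKM against 4.43 to 5.65 FPKM in CON. The sum ran from 4.71 to 6.00 FPKM in CON and from 6.96 to 7.87 in RA. The part of these markers in the changes of Plau and Serpine2 was not tested. In bulk RNA, fewer cells of a type and less RNA per cell cannot be told apart.

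Leaving out single samples did not end the call of Plau or Serpine2. The log2 fold change of Plau ran from 0.59 to 0.71 over the 6 fits (edgeR, adjusted p from 3.84e-04 to 0.0295), and the lowest value was that without CON sample 1. The range of Serpine2 was 0.82 to 0.91 (edgeR, adjusted p from 7.90e-08 to 0.00192), and the highest value was that without CON sample 1. For Plau the lowest value lay only just beyond the limit of 0.58.

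**Figure D4:**
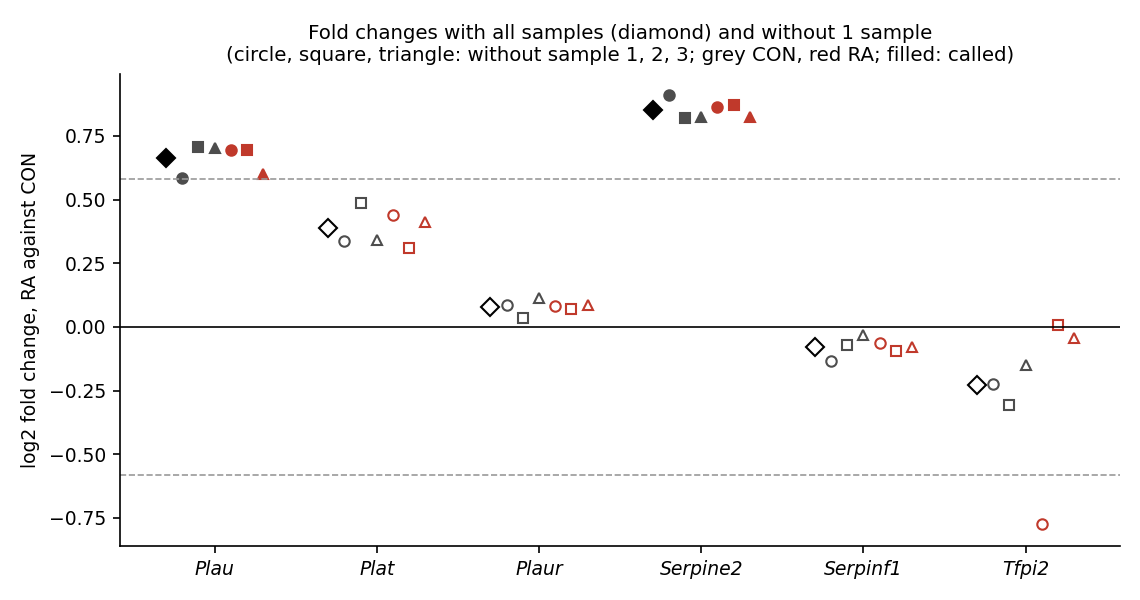
Log2 fold change of each member with all samples (diamond) and without 1 sample (circle, square and triangle for samples 1, 2 and 3; grey for CON, red for RA), with DEGs filled and the limits of 0.58 dashed. Serpine2 and Plau stay filled in every fit, Plat stays below the limit, and Tfpi2 runs from -0.77 without RA sample 1 to 0.0087 without RA sample 2.

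For each member with a mean of at least 1 FPKM, the 3 genes of most similar pattern were taken by Pearson's r of log2 CPM over the 6 samples, among 10348 genes. For Serpine2 these were Enpep, Slc20a1 and Anxa2, with r of 0.9988, 0.9986 and 0.9984. For Plau they were Ipo9, Kif20a and Jup (0.9981, 0.9976 and 0.9966), and for Plat they were Pinx1, Galc and Snx12 (0.974 to 0.977). Plaur was most like Fam210b, Samd10 and Gpr146 (0.986, 0.984 and 0.971), and Serpinf1 most like Smtn, Mpc2 and Nhlrc1 (0.9972, 0.9962 and 0.9955). The 6 points share their libraries and 2 groups, so that any gene that differs between CON and RA resembles any other that does. Not all matches differed in this way. Kif20a and all those of Plat, Plaur and Serpinf1 had adjusted p of 0.128 to 0.454 for RA against CON (edgeR). Among the members, r was 0.925 between Plau and Serpine2, 0.847 between Plau and Plat and -0.33 between Plau and Serpinf1 over the same 6 samples.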

How the data were processed

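The authors deposited, for each of 6 samples, raw read counts and FPKM values for 18923 genes. Between samples, the deposited FPKM scaled as the count over the summed counts of the sample, as checked in the 11184 to 11470 genes compared per sample. The submitters' processing notes name HISAT2, HTSeq 0.13.5 and the build Rnor_6.0, with no role or option. Samples were grouped by their titles.

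Counts were tested with edgeR 4.0.16 in R 4.3.3 (filterByExpr with a minimum count of 10, TMM normalization, glmQLFit and glmQLFTest, no covariates) over 13438 genes with Benjamini-Hochberg adjustment. Standard errors were derived from the F statistic, and confidence intervals from these with the degrees of freedom of the test. The fit was tested on simulated data. Alternatives were limma 3.58.1 on log2(FPKM + 0.1) and log2(FPKM + 1), DESeq2 1.42.0, other scalings, filters and call rules, a replicate block and each sample left out. The ratios were tested by exact permutation.

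The members, lists and tests were chosen with earlier results of these data known. Named genes were the members, the DEGs of the lists, the retinoid genes and the 3 genes most like each member. S100a10, Plgrkt, Eno1, Lrp1, Vldlr, Plg, F2r, F2, Fn1, Tgfb1, Fgb, Fgg, Serpinh1, Plxdc1, Plxdc2 and Ikbkb lie outside this rule and were chosen after their values were seen. The cell type markers named singly, such as Pdgfra, Thy1 and Cd14, also lie outside it and were picked from their lists with their values seen. The listed genes Serpina5, Klkb1, Sorl1, F7 and Fga and the markers Pecam1, Col1a2 and Myog were not analysed here. One tested gene of the lists is in the counts but is not reported here. Sequences came from RefSeq's GRCr8, and no other coordinates are given because the build differs from that of the counts. How reads shared between genes were assigned is not given in the sources used here.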

Additional observations from a re-analysis of the deposited data

How the results depend on the processing

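The calls of all 6 members held under the 8 other fits and the 6 fits without 1 sample, except that Tfpi2 was not tested when an FPKM of at least 1 in 3 samples was required, and its uncalled log2 fold change turned from -0.23 to 0.0087 without RA sample 2. With single samples left out, the log2 fold change ran from -0.77 to 0.0087 for Tfpi2, 0.31 to 0.49 for Plat, 0.036 to 0.11 for Plaur and -0.13 to -0.032 for Serpinf1. Over all 14 alternatives the adjusted p of Plat ran from 0.00423 to 0.193 and was below 0.05 in 7. In the other fits the log2 fold change of Plau ran from 0.62 to 0.68 and that of Serpine2 from 0.84 to 0.87. The number of genes called was 667, and was 433 in limma on log2(FPKM + 1), 1319 by the adjusted p alone and 1017 by the unadjusted p with the limit on fold change. It ran from 480 to 755 with 1 sample left out. The members called were 2 throughout and 3 by the adjusted p alone, and the called genes of the lists ran from 6 to 8. The 5 ratios kept their direction without any 1 sample. Counts in place of FPKM gave the same differences between the groups, since gene length cancels in them, so this was no separate check. The samples share replicate numbers without a stated pairing. The deviations of same-numbered samples from their group means correlated at 0.093, -0.012 and 0.012 over 13438 genes, and not every sample was most like its own number. With the number as a replicate block, 684 genes and 2 members were called, and the log2 fold changes were 0.67 for Plau, 0.39 for Plat (edgeR, adjusted p = 0.00423), 0.080 for Plaur, 0.85 for Serpine2, -0.078 for Serpinf1 and -0.32 for Tfpi2. The block changed no member's call. Tfpi2 had the fewest reads of the members, 19 to 50 per sample, and its FPKM spread more in RA (0.357 to 0.930) than in CON (0.586 to 0.712); the part of depth in this was not tested.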
